A study of Mus musculus with 24 samples.

Results

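A set of 10 genes of the endoplasmic reticulum (ER) folding machinery and the unfolded protein response was followed in mouse intestinal tumours treated with diphtheria toxin (DT) to deplete cells expressing Lgr5. They were picked by name, with earlier results of these data known. Their rows were read by Entrez identifier from each library's table, where they made up 10 of 36528 gene rows. The 10 are Hspa5, Hsp90b1, Calr, Pdia4, Creld2, Dnajb9, Sdf2l1, Herpud1, Manf and Xbp1. All 10 were found in every library and passed the filter on low counts. After DT, Xbp1 mRNA was lower at 24, 48 and 96 h, and Hspa5, Dnajb9 and Herpud1 were lower at 24 h. Of 17 alternative fits, all kept the 24 h calls of Xbp1 and Dnajb9, 16 that of Herpud1 and 13 that of Hspa5. The Xbp1 call was kept by 14 of 17 at 48 h and by 11 of 17 at 96 h. By edgeR's test the other 6 genes passed at no time, Sdf2l1 at 24 h being at the edge of the threshold. By the same test no gene of the 10 had an effect that differed among the times, although several alternative fits, DESeq2 and limma voom among them, called that difference for Xbp1.

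The tumours came from small intestine and carried the genotype AKVPL, whose letters the labels do not expand, in treated and control samples alike. Controls received saline. Cells were collected after sorting at 24, 48 or 96 h, which gives 6 groups of 4 libraries, and EpCAM, a surface protein of epithelium, appears in the sample names, while the sort is recorded as bulk. Nothing in the labels ties the 4 libraries of a group to separate animals, so the p-values cover the spread among these libraries, which may be technical. The labels used here give neither the age of the mice nor the allele that makes Lgr5+ cells sensitive to DT.

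Proteins that enter the ER are folded by chaperones, and misfolded chains are sent back to the cytosol for degradation. When folding falls behind, the sensors IRE1, PERK and ATF6 start the unfolded protein response. IRE1 splices Xbp1 mRNA so that it encodes an active transcription factor, PERK slows translation and favours ATF4, and cleaved ATF6 switches on chaperone genes. In the intestine the pathway is best known for its role in secretory cells, the goblet and Paneth cells. The counts are per gene and cannot tell spliced from unspliced Xbp1 mRNA. In these bulk samples, fewer cells of a type and less RNA per cell cannot be told apart.

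The ER stress response element, CCAAT followed by 9 bases and CCACG, is the textbook site of ATF6 with NF-Y, and it is shown because the chaperone genes described below are the classic carriers of it. RefSeq promoter windows on GRCm38.p6, from 250 bases before to 50 bases after the start, were matched by symbol for 9 of the 10 genes, all but Manf. On either strand, this element was found in 4 of the 9 windows, against 39 of 32851 windows of the same length (0.119%). The shorter variant, ATTGG followed by 1 base and CCACG, was found in 1 of the 9 and in 0.0365% of all windows. The sites read as follows, 5′ to 3′ along the strand that carries CCAAT or ATTGG, with the searched letters in capitals.
Hspa5 (chr2:34772025-34772043): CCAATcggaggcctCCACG
Hsp90b1 (chr10:86705638-86705656): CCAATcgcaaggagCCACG
Hsp90b1 (chr10:86705533-86705551): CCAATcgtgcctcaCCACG
Calr (chr8:84847075-84847093): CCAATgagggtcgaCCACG
Creld2 (chr15:88819520-88819538): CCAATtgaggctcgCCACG
Herpud1 (chr8:94386377-94386387): ATTGGgCCACG
The Hspa5 site ended 47 bases before the start and the Herpud1 site 42 bases before it. Hsp90b1 carried a pair of sites, in opposite orientations. TGACGTGG, a core bound by ATF6 and XBP1, was in 0 of the 9 windows and in 0.676% of all. CCACG alone, which overlaps both longer elements, was in 8 of the 9, all but Xbp1, and in 32.8% of all windows. The stretches just before the start are printed for Hspa5, whose site lies nearest to the start among the 4 carriers, for Hsp90b1, which holds a pair, and for Xbp1, the gene with the most negative change after DT. The complete sites are in capitals, and each stretch is read 5′ to 3′ on the gene's own strand.
Hspa5 (chr2:34771940-34772089, plus strand): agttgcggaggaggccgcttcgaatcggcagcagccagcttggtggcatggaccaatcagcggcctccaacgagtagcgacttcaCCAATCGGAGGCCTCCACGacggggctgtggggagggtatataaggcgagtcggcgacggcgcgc
Hsp90b1 (chr10:86705445-86705694, minus strand): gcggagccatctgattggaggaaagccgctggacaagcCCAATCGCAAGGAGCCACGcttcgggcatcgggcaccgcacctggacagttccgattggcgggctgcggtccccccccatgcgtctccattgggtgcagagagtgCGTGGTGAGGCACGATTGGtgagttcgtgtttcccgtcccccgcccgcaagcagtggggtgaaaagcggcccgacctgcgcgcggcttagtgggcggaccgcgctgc
Xbp1 (chr11:5520491-5520640, plus strand): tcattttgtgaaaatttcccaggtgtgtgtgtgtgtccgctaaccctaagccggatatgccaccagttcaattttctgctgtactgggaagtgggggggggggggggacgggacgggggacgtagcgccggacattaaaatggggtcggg
A match in these windows is a description of letters and says nothing about binding.

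**Figure D1:**
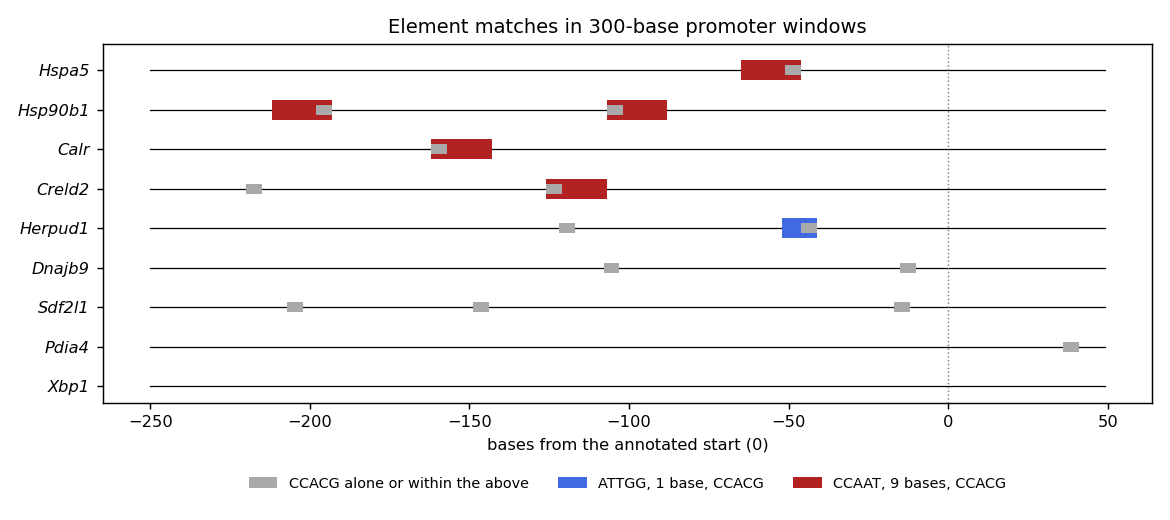
Positions of the searched elements in the promoter windows of 9 genes, in bases from the annotated start at 0. Red bars are CCAAT, 9 bases, CCACG, the blue bar is ATTGG, 1 base, CCACG, and grey bars are CCACG, alone or within a longer element. Red bars appear in 4 genes, with a pair in Hsp90b1.

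A library held from 10888654 to 27707554 counts, and 17468 genes were tested. Lgr5, the receptor that marks the cells to be depleted, had 179 to 217 CPM (counts scaled to library size) in saline and 77.0 to 84.9 after DT at 24 h. The 96 h groups, 152 to 182 and 123 to 135, did not overlap either. Those of 48 h did, with 164 to 198 in saline and 95.4 to 171 after DT. The highest of these DT values belonged to replicate 3, which also lay apart from its group on the first principal component (-2.97, against 18.4 to 30.9 for the other 3). The values of the 10 genes at 48 h are therefore also given without that library. Epithelial markers were abundant in every library, and the 9 genes of that list summed to 7026 to 9357 CPM. T and NK cell markers summed to at most 1.69 CPM. Other lists were not near 0. The 12 fibroblast genes summed to 3471 to 13620 CPM, the 12 macrophage and monocyte genes to 151 to 596, and the 8 endothelial genes to 225 to 674. After DT at 48 h the fibroblast sums spanned 8416 to 13620 CPM and the epithelial sums 7246 to 8644.

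Per length, the chaperones stood far above the rest. On the deposited nRPKM scale, a length-corrected level, the mean over all 24 libraries was 452 ± 41.6 (SD, n = 24) for Calr, the calcium-binding lectin chaperone calreticulin. It was 384 ± 48.7 for Hspa5, the central HSP70 chaperone BiP, and 301 ± 31.0 for Hsp90b1, the ER form of HSP90. Each of these was above the next in 24 of 24 libraries, and together they held 77.2% to 80.8% of the summed nRPKM of the 10 genes. Xbp1 (83.0 ± 14.1) and Pdia4 (81.0 ± 8.09) followed, with Xbp1 the higher in 15 of 24 libraries. Manf (38.7 ± 4.13) and Herpud1 (34.8 ± 3.43) came next, Manf being the higher in 18. Sdf2l1 (21.7 ± 3.72), Dnajb9 (19.2 ± 3.25) and Creld2 (18.8 ± 2.33) were the lowest, and neighbours among these 3 changed places between libraries. Over the 24 libraries the ranges of neighbours in this order overlapped, except between Hsp90b1 and Xbp1 and between Pdia4 and Manf.

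Compared with saline, DT lowered 4 of the 10 genes at 24 h and raised none at an adjusted p under 0.05 (edgeR quasi-likelihood test, Benjamini-Hochberg over all genes). Over all genes tested, 38.7% passed at that time, 18.9% as lower and 19.9% as higher. The share in either direction, 4 of 10, was thus near that of all genes. The median log2 fold change of the 10 was -0.12, against -0.0036 for all genes, and their median size of change was 0.21, against 0.26. At an unadjusted p under 0.05 (edgeR), 5 of the 10 differed, beside 8142 of all 17468 genes tested. The fifth was Sdf2l1, which was higher. DESeq2 called 1 gene of the 10 higher and limma voom none. Levels of single genes below are CPM scaled by TMM, given for replicates 1 to 4.

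Xbp1 (Entrez 22433, chr11:5520641-5525993), the transcription factor of the IRE1 branch, had 218, 224, 219 and 205 CPM in saline at 24 h. After DT it had 149, 137, 148 and 157. Every DT library was below every saline library, and the gap between the groups was wider than the spread within either. The log2 fold change was -0.55 ± 0.07 (SE), a fall of 31.9%, with an adjusted p of 1.07e-06. At 48 h saline had 232, 264, 233 and 238 CPM and DT 221, 195, 196 and 192. The groups again did not overlap, although DT replicate 1 was close to the lowest saline library, and the change was -0.27 ± 0.07 (adjusted p = 0.0127). At 96 h saline had 240, 235, 293 and 233 CPM and DT 212, 203, 208 and 207. The DT libraries lay close together, all under the saline range, and the change was -0.27 ± 0.07 (adjusted p = 0.0237). Without saline replicate 3, the highest library, the change at 96 h was -0.17 and the adjusted p 0.151. At 48 h, leaving out saline replicate 2 gave -0.22 (adjusted p = 0.0597) and leaving out DT replicate 4 gave -0.24 (adjusted p = 0.0533), and the call was lost both times. At 96 h it was also lost without DT replicate 2, 3 or 4 (adjusted p = 0.0751, 0.0669 and 0.0784).

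Hspa5 (Entrez 14828, chr2:34772090-34776529) had 1228, 1231, 1211 and 1137 CPM in saline at 24 h and 1111, 1005, 1010 and 931 after DT. The groups did not overlap, but the gap was narrow, with the highest DT library just under the lowest saline one. The fall was -0.24 ± 0.09 on the log2 scale (adjusted p = 0.0270). Leaving out DT replicate 2, 3 or 4 raised the adjusted p to 0.0534, 0.0576 and 0.0798. At 48 h the saline libraries, 959, 1230, 1101 and 975 CPM, enclosed the DT libraries, 1011, 986, 1034 and 1079. At 96 h saline had 1166, 1391, 1523 and 1143 CPM and DT 1279, 1176, 1115 and 1207, and the ranges overlapped. The intervals of the log2 fold change were -0.23 to 0.12 at 48 h and -0.31 to 0.05 at 96 h (95%).

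Dnajb9 (Entrez 27362, chr12:44205897-44210068), a J-domain partner of BiP also called ERdj4, had 47, 46, 44 and 39 CPM in saline at 24 h. After DT it had 28, 31, 31 and 34 CPM, below all saline libraries. The fall was -0.48 ± 0.11 (adjusted p = 0.00177). At 48 h saline had 43, 49, 38 and 40 CPM and DT 28, 36, 45 and 35. Here 3 DT libraries lay under the saline range and replicate 3, the library that stood apart, lay within it. The change was -0.25 ± 0.11 with that library (adjusted p = 0.162) and -0.36 without it (adjusted p = 0.0292). At 96 h saline had 47, 54, 45 and 41 CPM and DT 39, 41, 48 and 42, which overlapped (-0.14 ± 0.11, adjusted p = 0.648).

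Herpud1 (Entrez 64209, chr8:94386429-94395371), an ER membrane protein of the degradation machinery, had 105, 91, 92 and 89 CPM in saline at 24 h. After DT it had 74, 77, 83 and 88 CPM. No DT library reached the lowest saline one, and the fall was -0.23 ± 0.07 (adjusted p = 0.00974). At 48 h saline had 87, 95, 87 and 91 CPM and DT 84, 78, 88 and 80, so that 3 DT libraries were below the saline range (-0.12 ± 0.07, adjusted p = 0.269). At 96 h saline had 97, 95, 115 and 91 CPM and DT 86, 85, 88 and 85. The groups were separate at 96 h, and the change of -0.21 ± 0.07 did not pass the test (adjusted p = 0.0917).

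**Figure D2:**
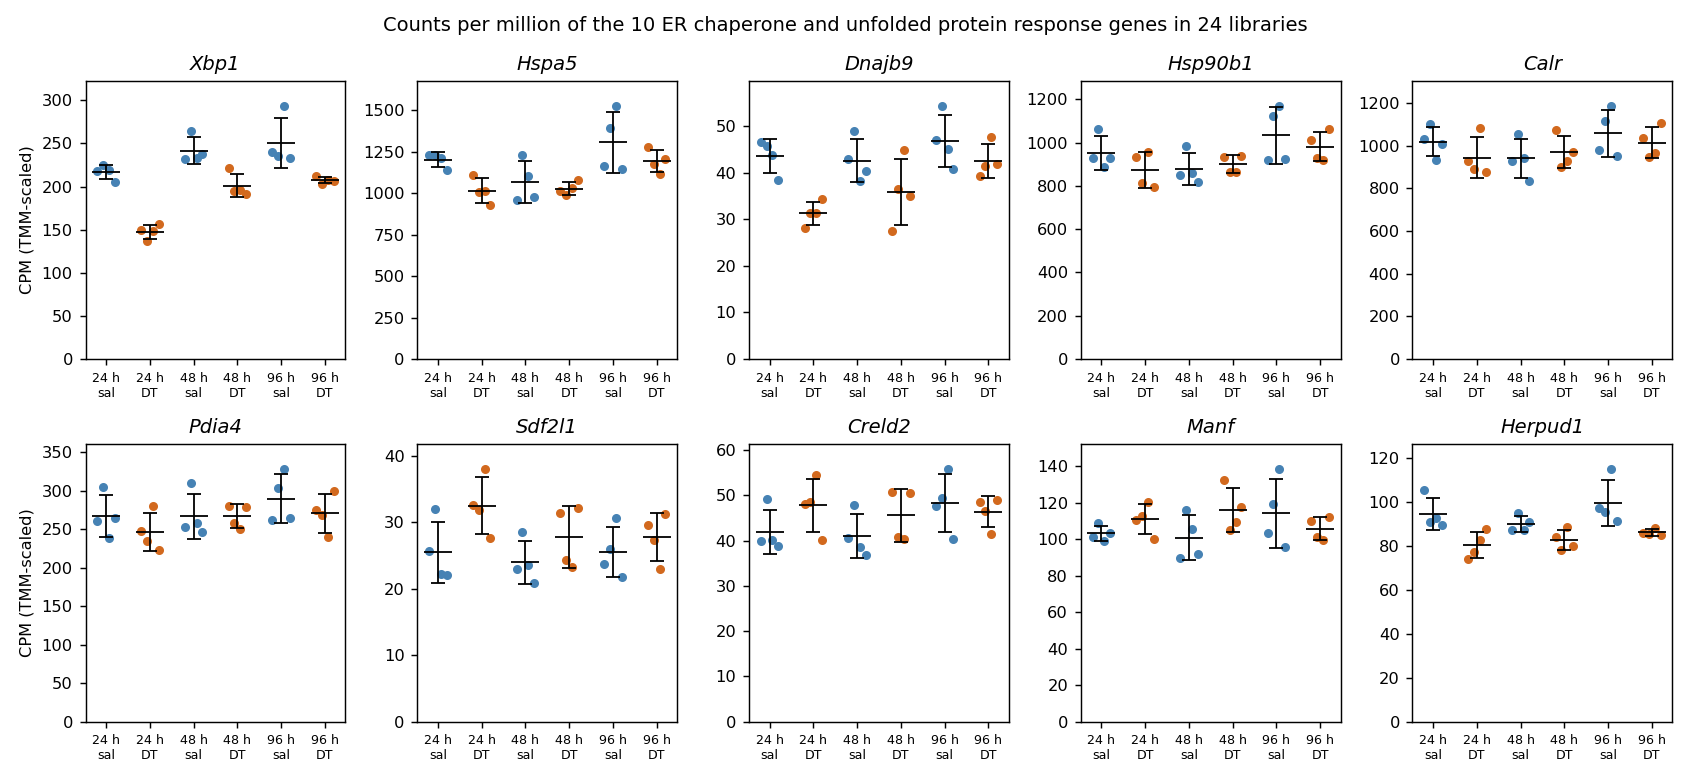
CPM of the 10 genes in the 24 libraries (y axis from 0, scale differs by gene). Points are single libraries, blue for saline and orange for DT; black bars are the mean ± SD of 4 libraries. Xbp1 lies lower after DT at all 3 times without overlap, whereas the DT and saline points of Hsp90b1, Calr and Pdia4 overlap at each time.

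Hsp90b1, Calr and Pdia4, 3 genes that encode folding proteins, gave no call at any time. Hsp90b1 (Entrez 22027, chr10:86690841-86705444) had 929, 1065, 888 and 927 CPM in saline at 24 h and 936, 815, 957 and 794 after DT. Calr (Entrez 12317, chr8:84842088-84846931) had 1034, 1101, 935 and 1007 CPM in saline and 927, 894, 1085 and 875 after DT. Pdia4 (Entrez 12304, chr6:47796141-47813512), a protein disulfide isomerase, had 261, 305, 239 and 265 CPM in saline and 248, 235, 280 and 223 after DT. In all 3, the DT values fell within or under the saline range. Their log2 fold changes at 24 h were -0.12, -0.11 and -0.12, with 95% intervals of -0.30 to 0.06, -0.29 to 0.07 and -0.31 to 0.07. These intervals include the value of Hspa5. At 48 h the changes were 0.035, 0.042 and 0.0021, and at 96 h they were -0.075, -0.061 and -0.096.

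The other 3 genes had DT values on the higher side at 24 and 48 h without passing the test. Sdf2l1 (Entrez 64136, chr16:17130138-17132383), which joins BiP and its J-domain partners, had 26, 32, 22 and 22 CPM in saline at 24 h and 33, 32, 38 and 28 after DT. The groups overlapped, since DT replicates 2 and 4 (31.8 and 27.6 CPM) lay below saline replicate 2 (31.9 CPM). The change was 0.35 ± 0.14 (adjusted p = 0.0504), at the edge of the threshold, and 7 of 17 alternative settings put it under 0.05. Creld2 (Entrez 76737, chr15:88819646-88826681), a stress-induced ER protein that can be secreted, had 40, 49, 40 and 39 CPM in saline and 48, 49, 55 and 40 after DT (0.19 ± 0.11, adjusted p = 0.191). Manf (Entrez 74840, chr9:106888753-106891938), a stress-induced ER factor that binds BiP, had 101, 109, 99 and 104 CPM in saline and 110, 113, 121 and 100 after DT (0.10 ± 0.10, adjusted p = 0.426). Both overlapped between the groups. At 48 h the changes of Sdf2l1, Creld2 and Manf were 0.22, 0.15 and 0.20, with adjusted p from 0.195 to 0.396. At 96 h they were 0.13, -0.05 and -0.11, with adjusted p from 0.700 to 0.899.

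At 48 h 1 of the 10 genes, Xbp1, passed as lower, beside 6.5% of all genes tested (11.3% in either direction). Without DT replicate 3, Dnajb9 joined it and 2 passed, in a fit that called more genes in all, 1372 lower and 1369 higher, against 1135 and 844 with that library. The change of Xbp1 was then -0.24 (adjusted p = 0.0229) and that of Herpud1 -0.14 (adjusted p = 0.182), and the other 7 lay between -0.04 and 0.31 without a call. At 96 h Xbp1 was again the gene that passed, beside 3.02% of all genes called lower and 4.03% in either direction. None passed as higher at 48 or 96 h (4.83% and 1.01% of all genes did), and DESeq2 and limma voom called none higher either. An unadjusted p under 0.05 (edgeR) was found for 2 of the 10 at each time, beside 4542 and 2716 of all 17468 genes. The 2 were Xbp1 and Dnajb9 at 48 h, and Xbp1 and Herpud1 at 96 h, all lower. Genes whose highest DT library was under the lowest saline library numbered 4 of 10 at 24 h, 1 at 48 h and 2 at 96 h. Over all genes the same held for 16.2%, 8.65% and 6.7%. The median size of change of the 10 genes was 0.14 at 48 h and 0.12 at 96 h, near the 0.16 and 0.11 of all genes.

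**Figure D3:**
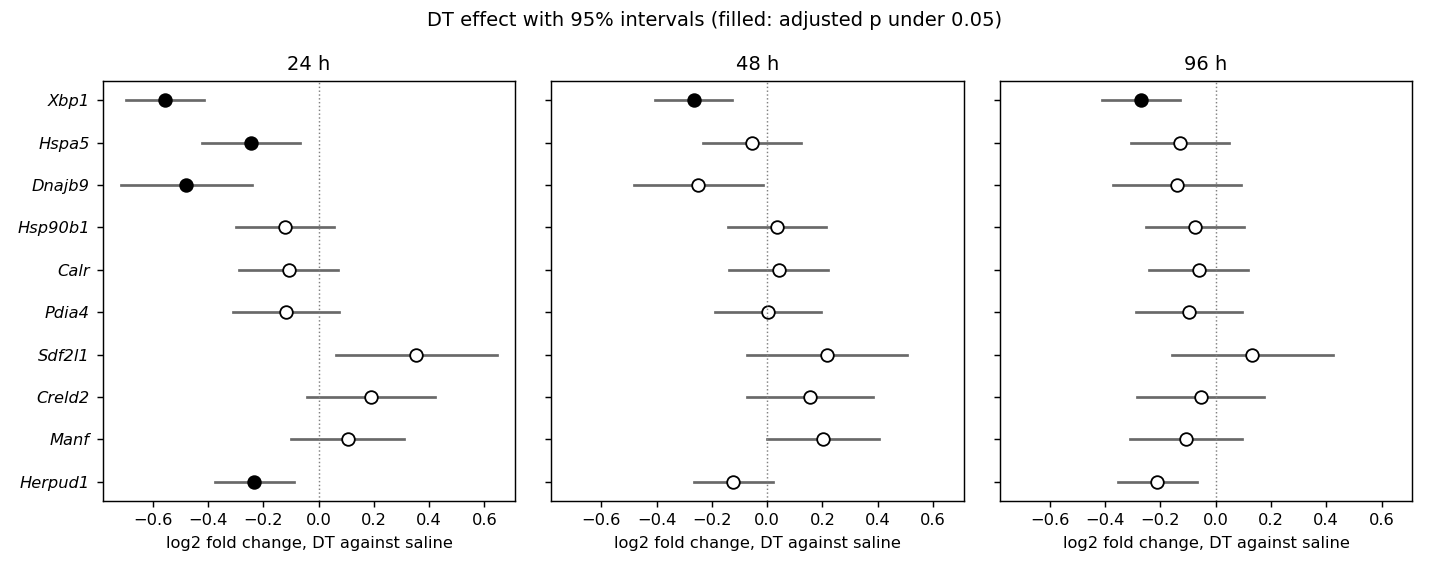
Log2 fold change of DT against saline for the 10 genes at 24, 48 and 96 h (x axis), with 95% intervals as lines. Filled points had an adjusted p under 0.05: Xbp1, Hspa5, Dnajb9 and Herpud1 at 24 h, and Xbp1 at 48 and 96 h.

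Whether the DT effect itself differed among the times was tested by interaction. None of the 10 genes passed, beside 7.97% of all genes (edgeR). At an unadjusted p under 0.05 there was 1 of the 10, Xbp1, beside 3714 of all 17468 genes. DESeq2 and limma voom each called Xbp1. The adjusted p of Xbp1 was 0.0801 among the 3 times. Its effect was smaller by 0.28 on the log2 scale at 96 h than at 24 h (95% interval 0.09 to 0.48, adjusted p = 0.0548; 11.9% of all genes passed) and by 0.29 at 48 h (0.09 to 0.49, adjusted p = 0.113; 2.89% passed). Neither passed in edgeR's fit of all libraries, and both share the 24 h libraries. The difference between 96 and 24 h did pass in 13 of 24 alternative settings, among them both other scalings, DESeq2, limma voom and 9 of 16 fits without a single library (adjusted p from 0.00292 to 0.174 over the 24). For Dnajb9 the 96 h effect differed from that at 24 h by 0.34 (0.01 to 0.67, adjusted p = 0.179). For the other 8 genes the adjusted p among the times ran from 0.336 to 0.825.

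Saline libraries gave the background of change with time. None of the 10 genes passed between 48 and 24 h, where 0.355% of all genes did, nor between 96 and 24 h, where 3.22% did (edgeR). Xbp1 had an unadjusted p under 0.05 in both, 1 of the 10 genes each time, beside 1883 and 3165 of all 17468 genes. Of the 10, DESeq2 called 0 in both, and limma voom 0 and 1. Against the 24 h saline libraries the level of Xbp1 differed by 0.16 at 48 h, with an adjusted p of 0.416. The difference at 96 h was 0.21, with an adjusted p of 0.0960.

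Relative to Hspa5, Xbp1 was lower after DT at 24 h, a contrast that is described by ranges and was not tested. At 24 h, Xbp1 CPM per 100 Hspa5 CPM ranged from 17.8 to 18.2 in the saline libraries and from 13.4 to 16.8 after DT, without overlap. Saline spanned 21.2 to 24.4 and DT 17.8 to 21.9 at 48 h. At 96 h saline spanned 16.9 to 20.6 and DT 16.6 to 18.6, and the groups overlapped at both later times. Of the 4 carriers of the complete CCAAT element, Hspa5 passed at 24 h (-0.24) and the others did not, with values of -0.12 for Hsp90b1, -0.11 for Calr and 0.19 for Creld2, whose intervals include 0. Herpud1, which carries the shorter ATTGG variant, also passed (-0.23). Xbp1 and Dnajb9, the genes with the lowest values at that time, had no match to either element in their windows. A site outside these windows would not have been seen. Whether the elements bear on the changes was not tested.

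The pattern of Hspa5 across the 24 libraries was nearest to that of Hsp90b1 among 10833 other genes that averaged 10 CPM or more. Likeness was the root mean square distance of log2 CPM after centring each gene on its own mean, and it was 0.088 for Hsp90b1, against a median of 0.235 over those genes. Calr ranked 4, Pdia4 8 and Herpud1 36. Xbp1 ranked 4086, Dnajb9 3148 and Sdf2l1 7368, while Manf ranked 1048 and Creld2 1636. The nearest genes outside the 10 were Mllt11, an identifier without a symbol in the RefSeq table (Entrez 102641971), Cds2, Crem and Edem1, at ranks 2, 3, 5, 6 and 7. Edem1, a lectin that passes misfolded glycoproteins to degradation, lay at 0.124. A gene that varies little is near any other by this measure, and the libraries share their groups and may share batches.

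Of 10 sensors and transcription factors of the response, 4 fell at 24 h, beside 18.9% of all genes, and the other 6 did not pass. Their median log2 fold change was -0.07, against -0.0036 for all genes. Ern1, which encodes IRE1, had 91.9 to 108 CPM in saline and 52.1 to 70.9 after DT (-0.70 ± 0.15, adjusted p = 0.000593). It also fell at 48 h (-0.62 ± 0.15, adjusted p = 0.00787), where DT ranged from 38.0 to 88.0 CPM, below all saline libraries. Creb3l2, a membrane-bound factor related to ATF6, fell by 0.36 at 24 h, and Nfe2l1, an ER-anchored regulator of proteasome genes, by 0.34. Eif2ak3, which encodes PERK, was also called lower at 24 h. At 48 h 3 of the 10 fell, beside 6.5% of all genes. They were Nfe2l1, by 0.22 (edgeR adjusted p = 0.0149), Creb3l2, by 0.24 (adjusted p = 0.0486), and Ern1. The Creb3l2 call was lost in 10 of 17 alternative settings.

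Of 27 other ER chaperones and folding enzymes, 3 rose and 3 fell at 24 h (11.1% each), under the 19.9% and 18.9% of all genes. The median was -0.03. Ero1a, the oxidase that recharges protein disulfide isomerases, had 157 to 186 CPM in saline and 62.8 to 72.3 after DT (-1.32 ± 0.21, adjusted p = 4.81e-05). It stayed lower at 48 h (-0.98 ± 0.21) and at 96 h (-0.79 ± 0.21, adjusted p = 0.0340), and its DT libraries lay under the saline range at 96 h, a call that 8 of 17 alternative settings lost (adjusted p up to 0.128). Its paralogue Ero1b moved the other way at 24 h, from 18.1 to 26.5 CPM in saline to 29.9 to 39.5 after DT (0.56 ± 0.17, adjusted p = 0.00994). Dnajb11, a J-domain partner of BiP, fell by 0.27 at 24 h (adjusted p = 0.0138). Pdia5 rose at 48 h (0.27 ± 0.07, adjusted p = 0.0149) and at 96 h (0.25 ± 0.07, adjusted p = 0.0483), the latter lost in 9 of 17 settings.

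Of 22 ER-associated degradation genes, 6 rose and 5 fell at 24 h, beside 19.9% and 18.9% of all genes. Os9, a lectin that selects misfolded glycoproteins, fell from 298 to 337 CPM in saline to 212 to 247 after DT (-0.50 ± 0.06, adjusted p = 5.9e-07). Ube2g2, a ubiquitin-conjugating enzyme of the pathway, rose from 57.9 to 69.2 CPM to 85.5 to 93.4 (0.51 ± 0.07, adjusted p = 2.83e-06). Ufd1, a cofactor of the VCP ATPase, fell by 0.28. At 96 h Derl1, a channel component, was the 1 gene of the list that passed (-0.29 ± 0.06, edgeR adjusted p = 0.00831). Over all genes 4.03% passed then in either direction. Of 25 genes of translocation and N-glycosylation, 3 rose and 1 fell at 24 h, among them Ostc (0.26 ± 0.09) and the translocation factor Sec63 (-0.23 ± 0.05). Of 24 genes of ER-to-Golgi transport, 3 rose, Copb1 by 0.21, Sec13 by 0.23 and Sec23b by 0.16, the last lost in 6 of 17 settings. The medians of these 3 lists were -0.01, 0.08 and 0.04. The shares called at 24 h in the translocation and the transport lists lay under those of all genes.

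Of 18 genes of the PERK and ATF4 arm, 6 rose and 5 fell at 24 h, beside 19.9% and 18.9% of all genes, with a median of -0.03. Psat1, an enzyme of serine synthesis, rose from 30.4 to 34.4 CPM in saline to 65.7 to 93.6 after DT (1.23 ± 0.10, adjusted p = 2.94e-09). Phgdh, the first enzyme of the same pathway, rose by 0.77 ± 0.12. Atf3, a stress-induced transcription factor, fell from 717 to 900 CPM to 391 to 505 (-0.87 ± 0.10, adjusted p = 2.48e-07) and was also lower at 48 h (-0.57 ± 0.09) and 96 h (-0.57 ± 0.09). These lists were chosen with earlier results of the same libraries known, and their counts are descriptions.

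**Figure D4:**
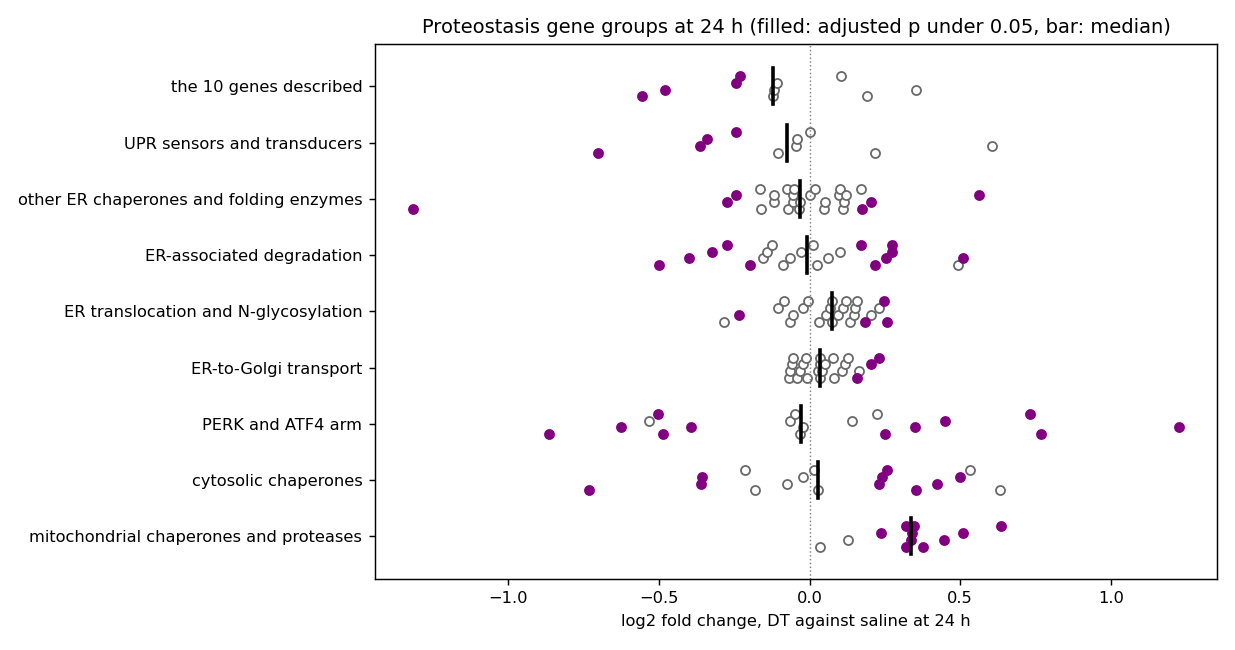
Log2 fold change of DT against saline at 24 h (x axis) for each gene of the 10 described and of 8 related lists. Filled points had an adjusted p under 0.05 and black bars are list medians. Medians lie between -0.12 and 0.08, except that of the mitochondrial chaperones and proteases at 0.34.

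Markers of some other cell types differed between the groups in which Xbp1 fell. Of 8 goblet cell genes tested of 10, 5 fell and 1, Spdef, rose at 24 h, beside 18.9% and 19.9% of all genes. The summed level of the 10 was 419 to 558 CPM in saline and 185 to 265 after DT. Muc2 had 2.64 to 14.4 CPM in saline and 0.739 to 1.69 after DT. The goblet sums of saline and DT libraries spanned 366 to 422 and 224 to 261 CPM at 48 h. Those at 96 h spanned 311 to 478 and 228 to 354 CPM. The sums overlapped at 96 h alone. Fcgbp, which made up most of the goblet sum in saline, was lower at all 3 times, with log2 changes of -1.92, -1.15 and -0.89 (edgeR, adjusted p = 2.26e-06, 0.00284 and 0.0311). Of 8 Paneth cell genes tested of 10, 4 fell at 24 h, beside 18.9% of all genes. The Paneth sums were 773 to 854 CPM in saline and 527 to 797 after DT, which overlapped. Of 9 enteroendocrine genes tested of 10, 1 rose and 1 fell, Cck and Tac1 (11.1% each, under the shares of all genes), with a median of 0.22. A list of 14 genes of pancreatic acinar cells summed to 1067 to 1687 CPM in saline and 71.6 to 130 after DT at 24 h, the saline sum coming mainly from the lipase-related genes Pnliprp1 and Pnliprp2, while Prss1, Cela3b and Ptf1a were at 0 in every library. The 10 plasma and B cell genes summed to 953 to 1126 and 714 to 1098 CPM, nearly all of it Sdc1, which epithelium also makes, and Ms4a1 was at 0 in both groups at 24 h. Of 12 fibroblast genes, Dcn (0.96 ± 0.32, edgeR adjusted p = 0.0213) and Pdgfra (0.53 ± 0.21, adjusted p = 0.0480) rose at 24 h. That share, 16.7%, was under the 19.9% of all genes. The fibroblast list's median was 0.50 at 24 h and 0.52 at 48 h. Their sums overlapped at 24 h, 4239 to 4985 CPM in saline and 3471 to 8141 after DT, and at 48 h, 4405 to 8680 and 8416 to 13620. The part of these markers in the results on the 10 genes was not tested.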

How the data were processed

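Per the labels' protocols, RNA of sorted cells was extracted with the RNeasy Micro kit; the molecule sequenced is given as polyA RNA. The authors deposited 1 table per library with a count of reads per gene and, per the file headers, nRPKM, which is an RPKM adjusted for library size. GSNAP and GRCm38 are named in the submitters' processing notes. Tool versions, gene annotation and strandedness are not given in the sources. Of 36528 Entrez identifiers, 31049 (85.0%) matched RefSeq symbols (GRCm38.p6), and unmatched rows stayed in the fit.

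The test on counts was that of edgeR 4.0.16, run in R 4.3.3 (robust quasi-likelihood, TMM scaling, filtering by expression within groups, 6 group means over 24 libraries, 18 residual degrees of freedom, two-sided, threshold 0.05). Standard errors were obtained by dividing the change by the root of F, and intervals are 95%. nRPKM served for levels between genes. No 2 libraries of a group were copies (smallest chi-square per degree of freedom 4.24). On simulated counts for 24 h (17275 genes) 9 calls were false. Of changes set at 1.2-fold the test found 10%, at 1.5-fold 82%, at 2-fold 98% and at 3-fold 100%. The simulation changed 50 genes at each size, whereas 38.7% of all genes passed at 24 h in the data. With so few changed genes the adjusted threshold was stricter there, so these shares do not give the test's power in the data. Hspa5 and Herpud1, with falls of 1.18-fold and 1.17-fold, passed at 24 h. Most changes of the 10 genes were nearer to 1.2-fold than to the larger sizes, and a missing call does not show a missing change.

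Other settings tried were scaling by median of ratios or upper quartile, no filter or at least 1 CPM in 4 libraries, DESeq2 1.42.0, voom of limma 3.58.1 with quality weights, non-robust dispersion, a replicate block, the libraries of each time alone, and each library left out. The 10 genes and the lists were chosen with earlier results of these data known. Named are the 10 genes, up to 3 genes per list and comparison with the smallest p, and the 5 other genes nearest to Hspa5, including those without a symbol. Of the list genes, a part is printed. Eif2ak3 is named besides, as the gene of PERK. Marker genes were picked from their lists after their values were seen. Protein sequences were not used here.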

Additional observations from a re-analysis of the deposited data

Results flagged for a closer look

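In 3 of 60 groups of 4 libraries (10 genes in 6 groups), a single library lay far from the other 3; chance gives about 1 in 20. Xbp1 had 221 CPM in DT replicate 1 at 48 h, against 192 to 196 in the others. Xbp1 had 293 CPM in saline replicate 3 at 96 h, against 233 to 240. Creld2 had 49.3 CPM in saline replicate 2 at 24 h, against 38.8 to 40.1.

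Of 56 genes from the 10 and the lists whose interaction was examined, the DT effect differed among 24, 48 and 96 h for 11, none of them among the 10 (edgeR interaction test, adjusted over all genes). Over all genes tested 7.97% passed. The list genes among the 56 were picked for a small p of DT against saline in these same libraries. Their count can therefore not be set against that share. Os9 (adjusted p = 0.0328) had log2 fold changes of -0.50, -0.23 and -0.19 at the 3 times. Ube2g2 (adjusted p = 0.00095) had 0.51, 0.33 and -0.08. Sec23b (adjusted p = 0.0311) had 0.16, -0.10 and -0.13. Psat1 (adjusted p = 0.000587) had 1.23, 0.54 and 0.36, and Nupr1 (adjusted p = 0.0275) had -0.02, 0.19 and -0.35. Among cytosolic chaperones, Cct3 (adjusted p = 0.0249) had 0.50, 0.24 and 0.09, and Hspa4 (adjusted p = 0.0196) had 0.35, 0.09 and 0.05. Dnajb1 (adjusted p = 0.0111) had -0.73, -0.29 and 0.01, and Hspa1b (adjusted p = 0.0308) had -0.22, 0.48 and 0.42. Of the mitochondrial chaperones, Hspa9 (adjusted p = 0.000264) had 0.63, 0.26 and 0.06, and Dnaja3 (adjusted p = 0.00746) had 0.35, 0.13 and -0.0030.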

How the results depend on the processing

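Xbp1 and Dnajb9 kept their calls at 24 h in all 17 alternatives (log2 fold changes of Xbp1 -0.60 to -0.51, of Dnajb9 -0.55 to -0.43), Herpud1 in 16 and Hspa5 in 13. Without the low-count filter 2 of the 10 genes were lower at 24 h and 0 at 96 h. Sdf2l1 made 1 gene higher at 24 h under median-of-ratios or upper quartile scaling, the filter at 1 CPM, DESeq2 and the 24 h libraries alone. With the libraries of their own time alone, 0 genes were lower at 48 and at 96 h. Leaving out each library gave 3 to 4 lower and 0 to 1 higher at 24 h, 0 to 2 lower at 48 h and 0 to 1 lower at 96 h. Xbp1 made 1 gene called between 96 and 24 h under both other scalings, DESeq2 and limma voom (0 to 1 with a library left out), 1 among the 3 times under DESeq2 and limma voom (0 to 1), and 1 between saline at 96 and 24 h under limma voom.

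Over all genes, limma voom gave 1767 higher and 2251 lower at 48 h, 574 and 1007 at 96 h, 2181 in the interaction and 361 and 1256 between saline times. DESeq2 gave 306 higher at 96 h and 156 and 978 between saline times, where no filter gave 321 at 96 h. The 48 h libraries alone gave 371 higher and 574 lower. With each library left out, the counts were 438 to 1369 higher and 672 to 1372 lower at 48 h, 63 to 156 and 290 to 533 at 96 h, 840 to 2070 in the interaction, and 38 to 87 and 91 to 1218 between saline times. The cause of these shifts was not tested.

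Values near 0 changed sign. Creld2 at 96 h was 0.0189 under limma voom and ran from -0.130 to 0.0388 with a library left out. Likewise Hspa5 ran from -0.0980 to 0.0211, Calr from -0.00868 to 0.102 and Pdia4 from -0.0216 to 0.0822 at 48 h. Hsp90b1 ran from -0.128 to 0.00693, Calr from -0.106 to 0.0154 and Manf from -0.183 to 0.0146 at 96 h, and Dnajb9 from -0.111 to 0.0185 between saline at 48 and 24 h.

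The correlations of same-numbered deviations ran from -0.36 to 0.13, and 2 of 12 were over 0.1. They were not set against those of libraries with different numbers, so they cannot show whether the shared numbers pair the libraries. With a replicate block, 3366 genes were higher and 3174 lower at 24 h, 687 and 1030 at 48 h and 127 and 462 at 96 h, and the 10 genes gave 4, 1 and 1 lower and 0 higher; Pdia5 at 96 h lost its call (adjusted p = 0.0690). Some of the 17 settings also ended calls of Dnajb11 (4), Ostc (4) and Sec13 (3) at 24 h, of Nfe2l1 (4), Pdia5 (3) and Ern1 (1) at 48 h, and of Derl1 at 96 h (1, without saline replicate 3).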

Other observations

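Of 12 mitochondrial chaperones and proteases, 10 rose at 24 h, beside 19.9% of all genes, with a median log2 fold change of 0.34 against -0.0036 for all genes. Hspa9, the mitochondrial HSP70, had 376 to 419 CPM in saline and 584 to 685 after DT (0.63 ± 0.06, edgeR adjusted p = 1.21e-08). Hspd1, the chaperonin HSP60, rose from 55.3 to 60.8 CPM to 72.4 to 95.9 (0.51 ± 0.08, adjusted p = 1.56e-05). At 48 h 2 of the 12 rose, beside 4.83% of all genes. These were Hspa9 (0.26 ± 0.06) and Hspe1, the partner of HSP60 (0.32 ± 0.10, edgeR adjusted p = 0.0345).

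Of 17 cytosolic chaperones, 6 rose and 3 fell at 24 h, beside 19.9% and 18.9% of all genes, with a median of 0.03. Cct3, a subunit of the TRiC chaperonin, rose from 221 to 246 CPM to 310 to 386, and Hspa4, a nucleotide exchange factor of HSP70, from 379 to 407 to 465 to 548. Dnajb1, a heat-inducible J-domain protein, fell from 514 to 689 CPM to 293 to 432 (-0.73 ± 0.11, adjusted p = 1.45e-05). At 48 h 2 of the 17 rose, beside 4.83% of all genes. These were Cct3 (0.24 ± 0.07) and the inducible HSP70 gene Hspa1b (0.48 ± 0.13, edgeR adjusted p = 0.0236), whose DT and saline ranges overlapped. Of 17 alternative settings, the 48 h call was lost in 6 for Hspe1, 5 for Cct3 and 5 for Hspa1b.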
